A study of Mus musculus with 12 samples.

Results

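The integrated stress response was followed in mouse gastrocnemius, a mixed leg muscle, through Atf4 and 9 genes that ATF4 is known to drive or work with, namely Atf5, Ddit3, Ddit4, Trib3, Asns, Chac1, Sesn2, Fgf21 and Gdf15. A gene counted as measured when a transcript cluster, the array's set of probes for a gene, was annotated with its symbol alone. This held for 9 of the 10 genes, each with 1 transcript cluster, among 28944 transcript clusters and 19938 genes. Gdf15 was not analysed here.

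The 12 samples were single Affymetrix arrays of gastrocnemius from male germ-free mice of the strain Tsl;ICR[GF], labelled as 11 weeks of age. Of these mice, 6 had received feces of sedentary donors (RS) and 6 those of trained donors (RT), and the muscle was taken at week 1. Both groups were gavaged while germ-free, then moved to specific-pathogen-free housing with a high-fat diet and repeated transfers, and both were fasted before the muscle was frozen. The study's question was how a microbiota acclimated to exercise in the donor changes the muscle of the recipient. By the methods, mice of a group shared cages and the fecal samples they were given, so a cage or a fecal sample cannot be told apart from donor training, and p-values measure the spread between these mice.

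In the integrated stress response, kinases that sense amino acid shortage, misfolded protein in the endoplasmic reticulum (ER), heme lack or double-stranded RNA phosphorylate the initiation factor eIF2. Translation falls in general, while the mRNA of the transcription factor ATF4 is translated more, and ATF4 then raises genes of amino acid supply, of growth restraint and, under lasting stress, of cell death. In skeletal muscle the pathway is known for its response to mitochondrial defects, fasting and disuse, with FGF21 and GDF15 as secreted signals. Because ATF4 is controlled largely in translation, its mRNA reports on the pathway less directly than its target genes do.

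ATF4 with a C/EBP partner binds a composite element of the form TGATGNAA, or TTNCATCA on the opposite strand. Both forms were searched, overlapping matches included, in the 250 bases before and the 50 bases after each RefSeq transcript start of assembly GRCm38.p6. All 10 genes had such a window, and 4 of them (Trib3, Asns, Chac1 and Fgf21) held a match, against 4.51% of 27025 genes. The sequences are shown because these 4 genes held a match in this window and the other 6 did not, so the matches can be set beside the values. Each is written 5′ to 3′ on the gene's own strand, with the match in capitals, and positions are counted from the transcript start.
Trib3, chr2:152344029-152344056, minus strand, match beginning 15 bases into the transcript: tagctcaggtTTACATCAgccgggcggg
Asns, chr6:7693215-7693242, minus strand, match beginning at −23: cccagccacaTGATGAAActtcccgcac
Chac1, chr2:119351039-119351066, plus strand, match beginning at −193: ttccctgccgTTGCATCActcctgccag
Fgf21, chr7:45615612-45615639, minus strand, match beginning at −139: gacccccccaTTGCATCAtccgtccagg
A match is a description of the letters in this window. Elements farther from the start were not searched.

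None of the 9 measured genes passed the test between RT and RS. The test was limma over all transcript clusters, two-sided, and the thresholds were those of the study's methods: an unadjusted p under 0.05 together with a false discovery rate (Benjamini-Hochberg) under 0.1, which is the adjusted p given from here on. By it, 0 of 9 were higher and 0 of 9 were lower, while 24.9% of all transcript clusters were called, 11.9% as higher and 13.0% as lower. By mean signal, 6 of the 9 genes lay above the median of the table, where 31.3% were called (20.6% higher, 10.7% lower). The other 3, Sesn2, Asns and Fgf21, lay below it, where 18.5% were called (3.21% higher, 15.3% lower). Whether the signal of these 3 was above background was not tested. The count was also 0 of 9 at an unadjusted p under 0.05 alone, in limma, in the methods' test and in an exact permutation test. Of all transcript clusters 32.6% had an unadjusted limma p under 0.05. By the methods' test 20.6% passed, at the stricter limits of p under 0.05 with an adjusted p under 0.1. The permutation test was not run over all transcript clusters. The groups overlapped for each of the 9 genes, whereas 5.79% of all transcript clusters had groups that did not overlap, 2.69% with RT higher and 3.10% with RT lower.

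The estimates themselves were small. Of the 9 log2 changes (RT minus RS), 4 were positive and 5 negative, with a median of −0.04 against −0.01 over all transcript clusters. Their median size was 0.09 and the largest 0.16, compared with a median size of 0.15 over all transcript clusters and of 0.35 over those called. The median standard error (SE) was 0.10 both for the 9 genes and for the table, and the median SD within groups was 0.17 for the 9 genes and 0.18 for all. Precision differed between genes, and Ddit4 and Chac1 were at percentiles 98.3 and 97.1 of the table by SD within groups, with Ddit3 at 85.5. The smallest change that passed anywhere in the table had a size of 0.16. Signal on an array depends on the probes, so levels are compared only within a gene.

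**Figure D1:**
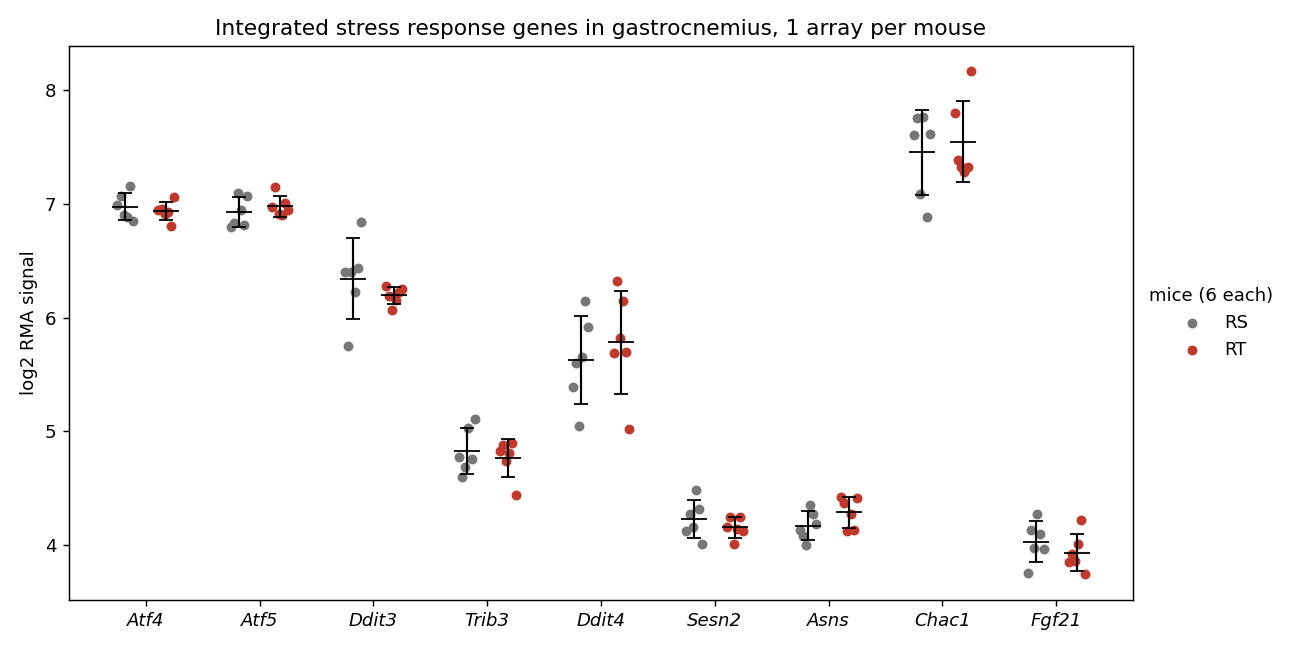
Log2 signal after robust multi-array average (RMA) normalization of the 9 measured integrated stress response genes in each mouse, with RS in grey and RT in red, 6 mice each. Horizontal bars are means and whiskers are SDs. The 2 groups overlap in every gene, and Ddit3 lies between 6.07 and 6.28 in RT but between 5.75 and 6.84 in RS.

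Among the regulators, Atf4 mRNA was nearly level in the signals as deposited. Its log2 signal lay between 6.85 and 7.16 in RS, with a median of 6.95, and between 6.81 and 7.06 in RT, with a median of 6.94. The RT range sat almost wholly inside the RS range, and 1 RT mouse was below all RS mice. The change was −0.04 (SE 0.08, n = 6 per group; limma adjusted p = 0.751). Its 95% interval of −0.20 to 0.12 corresponds to between 0.868 and 1.09 times the RS level. The size depended on the normalization. After quantile normalization the change was −0.18 (limma adjusted p = 0.107) and after cyclic loess also −0.18 (limma adjusted p = 0.105). After centring on array medians it was 0.03 (limma adjusted p = 0.805), and Atf4 passed in none of these.

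Atf5 encodes a related bZIP factor, linked to the mitochondrial unfolded protein response and, like ATF4, translated more when eIF2 is phosphorylated. Its signal ran from 6.80 to 7.10 with a median of 6.89 in RS, and from 6.90 to 7.15 with a median of 6.96 in RT. The groups shared most of their range, with 1 RT mouse above all RS mice. The change was 0.05 (SE 0.08; limma adjusted p = 0.675).

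Ddit3 encodes CHOP, the factor that links lasting stress to cell death. In RS its signal went from 5.75 over a median of 6.40 to 6.84, and in RT from 6.07 over 6.21 to 6.28. All 6 RT mice therefore fell inside the RS range. The SD was 0.35 in RS and 0.08 in RT, a ratio of 4.71, and 1.16% of all transcript clusters had a larger ratio. The larger SD was in RS for 7 of the 9 genes and for 69.8% of all transcript clusters, so a wider RS group was common on these arrays. The change in Ddit3 was −0.15 (SE 0.13; limma adjusted p = 0.455). Without RS-2, the RS mouse with the lowest value, it was −0.27 and passed as lower (limma adjusted p = 0.0866). Without RS-6, the RS mouse with the highest value, it was −0.05 (limma adjusted p = 0.815).

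Trib3, Ddit4 and Sesn2 restrain growth signaling. TRIB3 is a pseudokinase that binds AKT and also feeds back on ATF4, while REDD1 (Ddit4) and Sestrin 2 hold back the kinase complex mTORC1. Trib3 lay between 4.60 and 5.11 (median 4.76) in RS and between 4.44 and 4.90 (median 4.82) in RT. Of the 6 RT mice, 5 lay within the RS range and RT-6 lay below it. The change was −0.06 (SE 0.10; limma adjusted p = 0.718).

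Ddit4, which glucocorticoids and hypoxia also induce, had the widest spread of the 9 genes. It ran from 5.05 to 6.15 in RS, with a median of 5.62, and from 5.02 to 6.32 in RT, with a median of 5.76. The RT mice spanned the RS range and passed it at both ends. The change was 0.16 (SE 0.20; limma adjusted p = 0.610), and the interval of −0.26 to 0.58 is the widest of the set, allowing between 0.834 and 1.49 times the RS level. The estimate turned on single mice, at 0.04 without RS-3, 0.05 without RT-2, 0.08 without RT-4, 0.26 without RS-5 and 0.31 without RT-6, and it was 0.09 after quantile normalization or loess and 0.39 with the SD of each array as a covariate.

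Sesn2 lay between 4.01 and 4.48 (median 4.21) in RS and between 4.01 and 4.25 (median 4.15) in RT. Every RT value fell within the RS range. The change was −0.07 (SE 0.09; limma adjusted p = 0.592).

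Asns and Chac1 act in amino acid and glutathione metabolism. Asparagine synthetase (Asns) makes asparagine, and its gene is a textbook ATF4 target, with the match shown above close to its start. Asns ran from 4.00 to 4.35 with a median of 4.15 in RS, and from 4.12 to 4.42 with a median of 4.32 in RT. Its groups came nearest to separating, with 3 RT mice above all RS mice, yet the other 3 lay among them. The change was 0.12 (SE 0.09, 95% interval −0.06 to 0.30; limma adjusted p = 0.355). After a further quantile normalization the change was 0.22 and passed as higher (limma adjusted p = 0.0941), and after cyclic loess it was also 0.22 (limma adjusted p = 0.0902).

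Chac1 encodes an enzyme that degrades glutathione. Its signal lay between 6.89 and 7.77 (median 7.62) in RS and between 7.28 and 8.17 (median 7.36) in RT. The median was lower in RT and the mean higher, because 4 RT mice lay between 7.28 and 7.39 while RT-1 at 7.80 and RT-6 at 8.17 were above all RS mice. The change in means was 0.09 (SE 0.18; limma adjusted p = 0.741).

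Fgf21, the secreted factor of the set, is made mainly by liver and appears in muscle under mitochondrial stress. It ran from 3.75 over a median of 4.04 to 4.27 in RS, and from 3.74 over 3.89 to 4.22 in RT. The ranges were nearly the same, at a mean signal of 3.98, which was at percentile 40.6 of the table. The change was −0.10 (SE 0.10; limma adjusted p = 0.522).

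RT-3 lay below the mean of the 12 mice for 8 of the 9 genes, all except Ddit4, and RS-3 for 7, while RS-5 and RT-2 lay above it for 6 each. RT-6 had the lowest value of all 12 mice for Trib3, Ddit4 and Fgf21 but the highest for Chac1, and RS-6 the highest for Ddit3 and Trib3 but the lowest for Sesn2. RT-2 was highest for Atf5 and Ddit4, and RS-4 for Sesn2 and Fgf21. The 4 genes with a match to the ATF4 element in the searched window had changes of both signs, none of which passed: −0.06 for Trib3, 0.12 for Asns, 0.09 for Chac1 and −0.10 for Fgf21.

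As a whole, the arrays had median log2 signals between 4.40 and 4.63. RS-4 and RS-6 stood apart from the rest: the SD of their signals was 1.97 and 1.99, against 2.06 to 2.15 on the other arrays. Leaving out both made no call among the 9 genes, with 0 higher and 0 lower. The muscle label was borne out by fiber markers such as Ckm and Acta1, of which 0 of 12 passed the test and whose summed log2 level was 15.66 to 15.93 in RS and 15.83 to 15.92 in RT. Markers of other cells did differ: 11 of 14 macrophage markers were higher in RT, with summed levels of 8.67 to 9.46 in RS and 9.65 to 10.14 in RT, as were 12 of 15 fibroblast and matrix markers (11.75 to 12.72 and 12.71 to 13.05). Of 11 adipocyte markers 4 were higher and 1 lower (11.52 to 12.45 and 11.70 to 12.37), and of 7 hepatocyte markers 1 was higher and 2 lower (6.51 to 6.85 and 6.46 to 7.05), while Alb did not pass, with a change of −0.09. The share called was 78.6% for macrophages, 80.0% for fibroblasts and matrix, 45.5% for adipocytes and 42.9% for hepatocytes. Over all transcript clusters it was 24.9%. The part of these cells in the results was not tested, and in whole muscle, fewer cells of a type and less RNA per cell cannot be told apart.

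The rest of the pathway was read through 11 lists of 136 genes, of which 129 were measured. RT was higher for 36, lower for 6, and 87 did not pass, which makes 32.6% called beside the 24.9% over all transcript clusters. Most of these genes, 114, lay above the table's median signal, where 35.1% of them were called beside 31.3% of all transcript clusters, and of the 15 below it 13.3% were called beside 18.5%. By list, the share called ran from 16.7% for mitochondrial genes to 55.6% for paralogs and receptors. Without RS-4 and RS-6, 17 were higher and 1 lower, and with the SD of each array as a covariate (the spread covariate) 2 were higher and 1 lower. The counts over the whole table fell too under that covariate, to 732 higher and 888 lower from 3445 and 3764. Of 38 of the called genes named from these lists, 16 kept their call whichever single mouse was left out: Dnajc3, Ppp1r15b, Eif2s3x, Atf2, Slc3a2, Slc1a5, Phgdh, Shmt2, Gars1, Ndrg1, Ero1a, Herpud1, Pdia4, Mt2, Sesn3 and Ddit4l. The other 22 lost it in at least 1 of those 12 fits. Klf9, Sgk1, Glul and Nr3c1 were not among the 38.

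**Figure D2:**
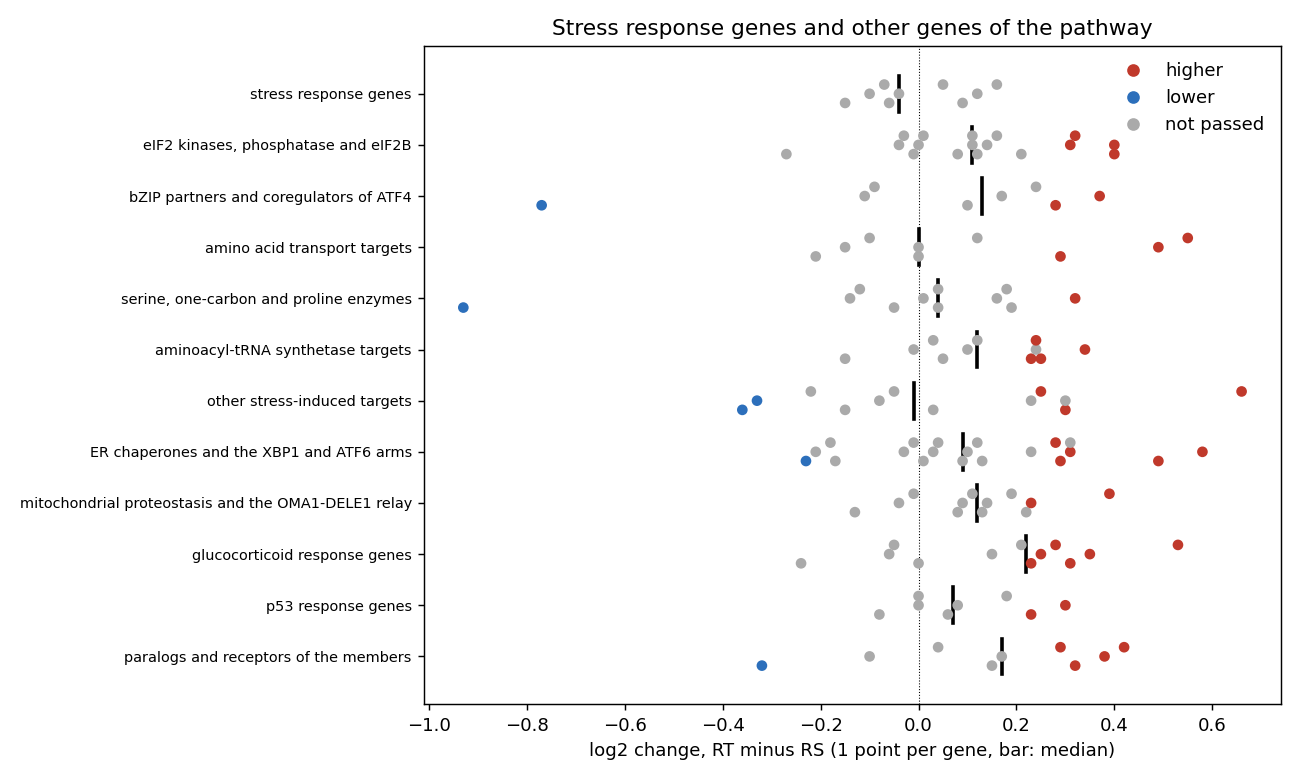
Difference in log2 signal between RT and RS (x axis, RT minus RS) by list, with 1 point per gene and the list's median as a black bar; red genes passed as higher, blue as lower and grey did not pass. All 9 stress response genes in the top row are grey and lie between −0.15 and 0.16, while each of the 11 other lists holds at least 1 gene that passed.

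The step upstream of ATF4 held 4 higher genes of 17 and 0 lower, with a median change of 0.11. This is 23.5% called, below the 31.3% of transcript clusters above the median signal, where 16 of the 17 lay. Of the 17, 2 were higher without RS-4 and RS-6 and 0 with the spread covariate. Of the 4 eIF2 kinases, Eif2ak1, the heme-regulated kinase HRI that also relays mitochondrial stress, was higher in RT. It lay between 6.49 and 7.10 in RS and between 6.93 and 7.32 in RT, with some overlap, and the change was 0.32 (SE 0.11; limma adjusted p = 0.0495). The other 3 did not pass: Eif2ak3 (PERK, the ER kinase) had a change of 0.11, Eif2ak2 (PKR, the sensor of double-stranded RNA) of −0.01 and Eif2ak4 (GCN2, the sensor of amino acid shortage) of −0.04. The call of Eif2ak1 was lost without RS-6, RT-2 or RT-6 alone (limma adjusted p between 0.103 and 0.106), without RS-4 and RS-6 together, after quantile or loess normalization and with the spread covariate.

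The 2 regulatory subunits that direct phosphatase to eIF2 differed in their calls. Ppp1r15a (GADD34), the one that stress and ATF4 induce, had a change of −0.03 (SE 0.09; limma adjusted p = 0.865). Ppp1r15b (CReP), the constitutive one, lay between 5.18 and 5.55 in RS and between 5.60 and 5.73 in RT, so all 6 RT mice were above all RS mice. Its change was 0.31 (SE 0.08; limma adjusted p = 0.0199). A dimmer transcript cluster of Ppp1r15b had a change of −0.20 and did not pass (limma adjusted p = 0.259), so its probes disagree. The difference between the 2 subunits was not tested.

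Also higher were Dnajc3 and Eif2s3x, both named after their values were seen. Dnajc3 encodes p58IPK, an inhibitor of the kinases PERK and PKR. It lay between 6.65 and 7.16 in RS and between 7.22 and 7.48 in RT, without overlap, for a change of 0.40 (SE 0.09; limma adjusted p = 0.00939). Eif2s3x, the gamma subunit of eIF2, had a change of 0.40 (limma adjusted p = 0.0343).

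**Figure D3:**
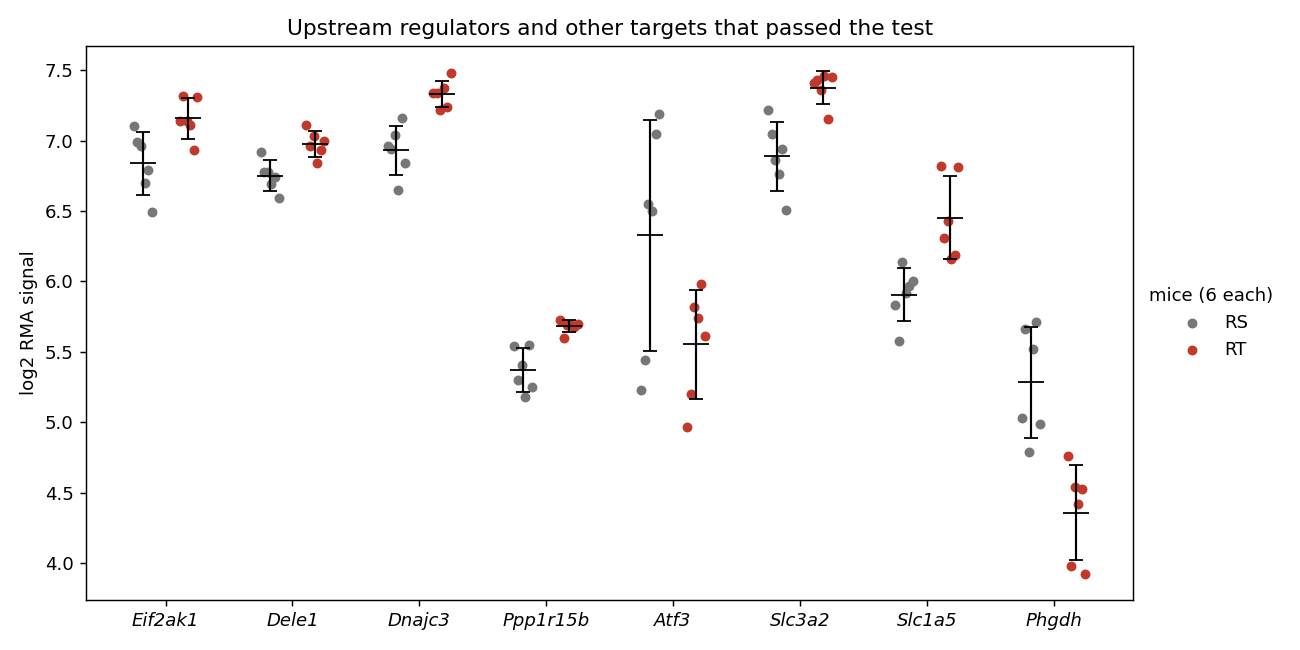
Log2 RMA signal in each mouse for 8 genes around ATF4 that passed the test, RS in grey and RT in red, 6 mice each, with means and SDs. The 2 groups are apart for Dnajc3, Ppp1r15b, Slc1a5 and Phgdh, and overlap for Eif2ak1, Dele1, Atf3 and Slc3a2.

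Of 8 bZIP partners and coregulators of ATF4, 2 were higher and 1 lower, with a median of 0.13. This is 37.5% called, beside 31.3% of transcript clusters above the median signal, where all 8 lay. Atf3, a stress-induced factor downstream of ATF4, was lower in RT. It was spread from 5.23 over a median of 6.53 to 7.19 in RS and from 4.97 over 5.68 to 5.98 in RT, so 4 RS mice were above all RT mice and 2 lay among them. The change was −0.77 (SE 0.29; limma adjusted p = 0.0806), while the exact permutation test gave p = 0.0671. The call was lost without RS-3, RS-4, RS-5, RS-6, RT-1, RT-2, RT-4 or RT-6 alone (limma adjusted p up to 0.174). Atf2 (0.37) and Cebpa (0.28) were higher. Cebpb and Cebpg, the partners with which ATF4 pairs at the element, did not pass, with changes of −0.11 and −0.09.

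Among 9 amino acid transporters, 3 were higher and 0 lower, with a median of 0.00. This is 33.3% called, beside 24.9% over all transcript clusters and 31.3% of those above the median signal. Slc3a2 encodes the heavy chain (4F2hc, CD98) that carries LAT1 and xCT to the membrane. It lay between 6.51 and 7.22 in RS and between 7.15 and 7.46 in RT, for a change of 0.49 (SE 0.11; limma adjusted p = 0.00860). The light chains did not pass: Slc7a5 (LAT1) had a change of 0.12 and Slc7a11 (xCT) of −0.10. Slc1a5, the glutamine carrier ASCT2, lay between 5.58 and 6.14 in RS and between 6.16 and 6.82 in RT. Its groups did not overlap, and the change was 0.55 (SE 0.13; limma adjusted p = 0.0119). The third was Slc6a9, a glycine carrier, at 0.29.

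Serine, one-carbon and proline enzymes held 1 higher and 1 lower gene of 11, or 18.2% called beside 24.9% over all transcript clusters. Phgdh, the first enzyme of serine synthesis and a target that ATF4 raises, was lower in RT. It lay between 4.79 and 5.71 in RS and between 3.92 and 4.76 in RT, without overlap. The change was −0.93 (SE 0.18; limma adjusted p = 0.00383), and it still passed without RS-4 and RS-6, at −0.94, and with the spread covariate, at −0.77. The next enzymes of the same route, Psat1 and Psph, did not pass, with changes of −0.12 and 0.04. Shmt2, which makes one-carbon units from serine in mitochondria, was higher by 0.32, and Mthfd2, beside it in that route, had a change of 0.01.

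Of 11 aminoacyl-tRNA synthetase and tRNA export genes, 4 were higher and 0 lower: Gars1 by 0.34 without overlap (SE 0.09; limma adjusted p = 0.0172), Tars1 by 0.25, Xpot by 0.24 and Iars1 by 0.23. This is 36.4% called, beside 31.3% of transcript clusters above the median signal, where all 11 lay. After cyclic loess 1 of the 11 was higher and 1 lower. The limma adjusted p was 0.0848 for Tars1, 0.0973 for Xpot and 0.0981 for Iars1. Each of these lost its call in 9 of the 12 fits without 1 mouse. They also lost it without RS-4 and RS-6 together and after quantile or loess normalization. A dimmer transcript cluster of Iars1 passed as higher, with 0.43 (limma adjusted p = 0.0463), also after loess (0.0914). Of 12 other stress-induced targets, 3 were higher and 2 lower, or 41.7% called beside 24.9% over all transcript clusters. Ndrg1, a gene of differentiation and hypoxia, was higher by 0.66 (SE 0.14; limma adjusted p = 0.00649), with RS between 5.71 and 6.49 and RT between 6.65 and 7.25. The ER oxidase Ero1a was higher by 0.30 and the autophagy receptor Sqstm1 by 0.25. The growth factor Vegfa, with a change of −0.36, and the cell death gene Bbc3 (PUMA), with −0.33, were lower. Vegfa lost its call in 10 of the 12 fits without 1 mouse and Bbc3 in 5. Neither passed without RS-4 and RS-6 (limma adjusted p = 0.359 and 0.235) or after loess (0.103 and 0.188). After centring Bbc3 passed (0.0997) and Vegfa did not (0.153). Bbc3 lay below the table's median signal, where 15.3% of transcript clusters were called lower.

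The ER response also runs beside PERK, through XBP1 and ATF6. In their list 5 of 20 genes were higher and 1 lower, with a median of 0.09. This is 30.0% called, near the 31.3% of transcript clusters above the median signal, where 19 of the 20 lay. Herpud1, which serves ER-associated degradation, was higher by 0.58 (SE 0.14; limma adjusted p = 0.0116), with RS between 8.11 and 9.08 and RT between 9.01 and 9.45. The disulfide isomerase Pdia4 was higher by 0.49, although a dimmer transcript cluster of it had −0.02. Calr (0.31), Sel1l (0.29) and Pdia6 (0.28) were higher and Sdf2l1 (−0.23) lower. Without RS-4 and RS-6 none of these passed, and after loess only Sdf2l1 among them did. The whole list then held 2 higher and 0 lower genes without RS-4 and RS-6, and 2 and 2 after loess. With the spread covariate it held 0 and 0. Its medians were 0.02, −0.01 and 0.02 in that order. The central members did not pass, namely the chaperone Hspa5 (BiP, 0.23), Xbp1 (0.13), Atf6 (0.10) and Ern1 (IRE1, −0.18).

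In the other lists 9 of 100 genes with a window held a match to the element, beside 4.51% of 27025 genes. Of these, Herpud1 and Eif2s3x were higher and Atf3 was lower, 5 did not pass (Nupr1, Pck2, Slc1a4, Slc7a11 and Vldlr) and 1 was not analysed here. The sequences of Atf3 and Herpud1 are shown as those of 1 lower and 1 higher gene, chosen after their values were seen, and both carry a match in the same TTGCATCA form as Chac1 and Fgf21.
Atf3, chr1:191183426-191183453, minus strand, match beginning at −110: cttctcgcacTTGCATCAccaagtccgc
Herpud1, chr8:94386307-94386334, plus strand, match beginning at −112: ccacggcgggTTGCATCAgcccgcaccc

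In the mitochondrial list, where OMA1 and DELE1 relay stress to HRI, 2 of 12 genes were higher and 0 lower. The share called was 16.7%, below the 31.3% of transcript clusters above the median signal, where all 12 lay. The chaperone Hspd1 counted as not passed by its brighter transcript cluster, with a change of −0.04. Its dimmer one passed as lower, with −0.33 (limma adjusted p = 0.0361), also without RS-4 and RS-6 (0.0717) and after loess (0.0143), but not with the spread covariate (0.116). After loess 0 genes of the list were higher and 1, Hspe1, was lower. Dele1 was higher by 0.23 (SE 0.08; limma adjusted p = 0.0560), with RS between 6.59 and 6.92 and RT between 6.84 and 7.11, and the chaperone Trap1 by 0.39. Oma1 had a change of −0.01 and did not pass. Without RS-4 and RS-6 neither Dele1 nor Trap1 passed, and Dele1 also lost its call without RS-6, RT-1, RT-3 or RT-6 alone (limma adjusted p up to 0.118).

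Glucocorticoids and p53 also act on Ddit4, Sesn2 and related genes. Of 12 glucocorticoid response genes 6 were higher and 0 lower, with a median of 0.22. Without RS-4 and RS-6, 3 were higher, with the spread covariate 1 and after loess 2, with medians of 0.19, 0.17 and 0.08. The higher genes included Mt2, a metallothionein, by 0.53, and the bZIP gene Cebpd by 0.35. The other higher genes were Klf9 by 0.31, Sgk1 by 0.28, Glul by 0.25 and Nr3c1 by 0.23, the last without overlap. Fkbp5, Zbtb16 and Per1, which glucocorticoids raise in many tissues, did not pass, with changes of −0.24, −0.06 and 0.00. Of 8 p53 response genes 2 were higher, Trp53inp1 by 0.30 and the p53 inhibitor Mdm2 by 0.23, and neither passed without RS-4 and RS-6. This is 25.0% called, beside 31.3% of transcript clusters above the median signal, where 7 of the 8 lay.

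Paralogs of the stress response genes gave a comparison within families. Of 9 paralogs and receptors, 4 were higher and 1 lower, with a median of 0.17. This is 55.6% called, beside 24.9% over all transcript clusters. Sesn3, a sestrin under FOXO control, lay between 5.78 and 6.21 in RS and between 6.25 and 6.58 in RT, without overlap, and was higher by 0.38 (SE 0.09; limma adjusted p = 0.0106). Sesn1, a p53 target that lay between 6.12 and 6.54 in RS and between 6.39 and 6.89 in RT, was higher by 0.29 (SE 0.10; limma adjusted p = 0.0529), a call lost without RT-1 or RT-2 (limma adjusted p between 0.107 and 0.119) and after quantile or loess normalization. Ddit4l, the REDD2 gene of muscle, ran from 9.03 over a median of 9.25 to 9.63 in RS, had a median of 9.71 and a lowest value of 9.57 in RT, and was higher by 0.42 (SE 0.11; limma adjusted p = 0.0181), and Trib2 was higher by 0.32. Trib1 and Chac2 did not pass, with changes of 0.15 and 0.04.

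Whether a paralog moved apart from its stress response partner was tested within each mouse, as the log2 signal of the paralog minus that of its partner, for 6 pairs. The pairs were tested after the values of the single genes were seen, so a small p partly restates the change of the paralog itself. Sesn2 lay below the table's median signal, where 3.21% of transcript clusters were called higher. Sesn1 and Sesn3 lay above it, where 20.6% were. The part of signal level in these differences was not tested. Sesn3 minus Sesn2 was higher in RT than in RS by 0.46 (SE 0.10), with all 6 RT mice above all RS mice. The exact permutation p, two-sided, was 0.00216, the smallest that 6 against 6 can give, and 0.0130 after adjustment over the pairs. Sesn1 minus Sesn2 was higher by 0.36 (SE 0.11; exact permutation p = 0.0130, adjusted 0.0390), but by 0.13 after quantile normalization (exact permutation p = 0.266). Sesn3 minus Sesn2 was then 0.25 (exact permutation p = 0.0152), and 0.24 after loess (exact permutation p = 0.0173). The differences for Trib2 and Trib1 against Trib3 were 0.38 and 0.21 and did not pass after adjustment (adjusted exact permutation p = 0.0747 for both). Ddit4l minus Ddit4 differed by 0.27 (SE 0.32; exact permutation p = 0.435) and Chac2 minus Chac1 by −0.06 (SE 0.26; exact permutation p = 0.833), both within the spread between mice.

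**Figure D4:**
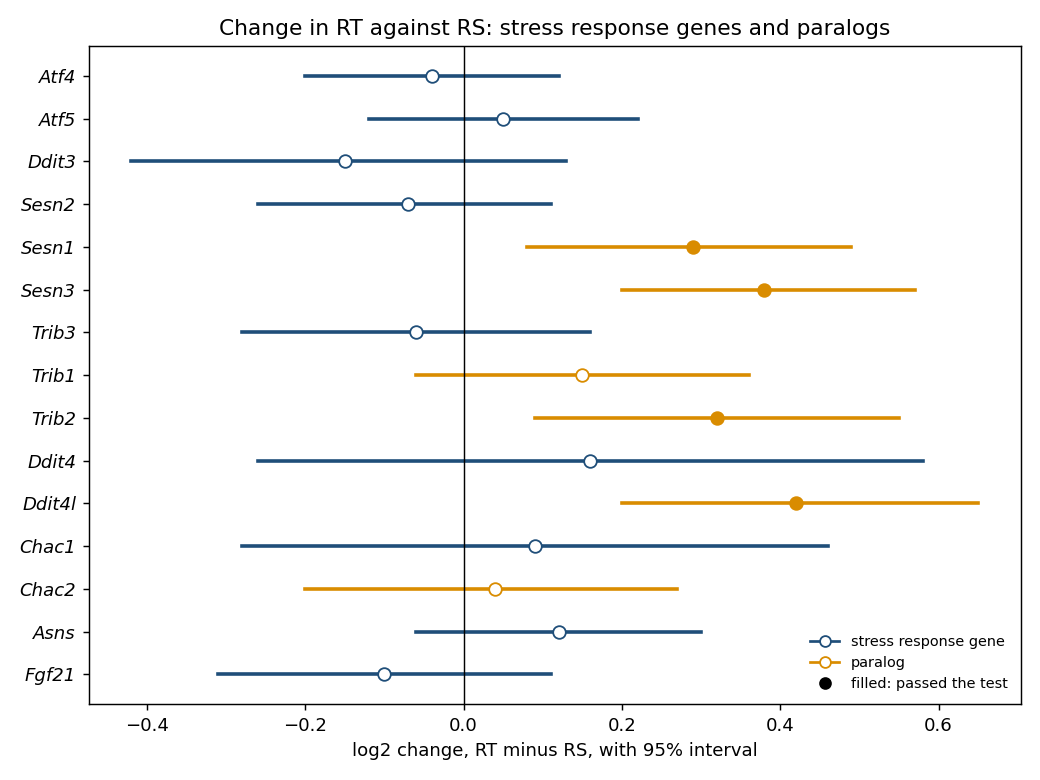
Log2 change (RT minus RS) with its 95% interval for the 9 measured stress response genes in blue and 6 paralogs in orange; filled points passed the test. The intervals of all 9 stress response genes cross 0, while those of Sesn1, Sesn3, Trib2 and Ddit4l lie above it.

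Of the receptor genes, Fgfr1, which with the coreceptor beta-Klotho receives FGF21, had a change of 0.17 (SE 0.08; limma adjusted p = 0.123). Klb, which encodes beta-Klotho, was lower in RT, with a change of −0.32 (SE 0.12; limma adjusted p = 0.0856). In the table's dimmer part 15.3% of transcript clusters were called lower and 3.21% higher. The Klb signal was below the table's median of 4.49 on every array, and whether it exceeded background was not tested. It lay between 2.61 and 3.40 in RS and between 2.42 and 2.76 in RT, and its call was lost without RS-2, RS-4, RS-6, RT-1, RT-2, RT-4, RT-5 or RT-6 alone (limma adjusted p up to 0.177), without RS-4 and RS-6 together (0.363), after quantile normalization (0.150), loess (0.146) or centring (0.130), with array weights (0.158), with the replicate number as a block (0.118), by the methods' test (0.146) and with the spread covariate (0.709). Gfral, the receptor gene of GDF15, had a change of −0.10 and did not pass.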

How the data were processed

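Total RNA of gastrocnemius was hybridised to 1 Affymetrix Mouse Gene 1.0 ST array per mouse (6 RS, 6 RT). The authors deposited log2 signals of 28944 transcript clusters normalized by RMA, and these were used as deposited. Arrays give no counts, so the number of arrays limits the precision. Groups came from the sample labels, and 0 columns of other samples were present. The annotation gave 1 symbol to 21789 transcript clusters, several to 1621 and none to 5534, and only those with 1 symbol were named. For 9 listed genes the current symbol was matched through the gene ID. The build behind the array's design is not given in the sources used here, and sequences are RefSeq's for GRCm38.p6.

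A linear model with moderated variances (limma 3.58.1, R 4.3.3) was fitted to all 28944 transcript clusters with the recipient group as its single term, two-sided. Genes passed at p under 0.05 with a Benjamini-Hochberg value under 0.1. The fit was tested on simulated data. The methods' test is a one-way analysis of variance on the same values. Exact permutation tests (scipy 1.17.1) used all 924 splits of 6 against 6. Of several transcript clusters of a gene the brightest stood for it. A cell type's summed level is the log2 of its markers' summed linear signals.

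The genes and lists were chosen with earlier results of these data known. Named were the set, the eIF2 kinases and phosphatase subunits, paralogs and receptors, and up to 2 called genes per direction with the largest change in each other list. Dnajc3, Eif2s3x, Slc6a9, Xpot, Iars1, Sqstm1, Pdia6, Calr, Sel1l and the genes named as not passing in a list were added after their values were seen, as were the paralog pair tests. Klf9, Sgk1, Glul and Nr3c1 were added in the same way. Alternatives were quantile and cyclic loess normalization, centring on array medians, leaving out dim transcript clusters, array weights, a robust trend, each array's SD as a covariate, the replicate number as a block, each array left out, RS-4 and RS-6 left out, and other thresholds.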

Additional observations from a re-analysis of the deposited data

Results flagged for a closer look

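In 8 of 108 groups of 6 mice examined, the highest or lowest mouse lay far from the others for its group's range, where chance flags about 1 in 20. Within the stress response genes this was Trib3 in RT-6, at a log2 signal of 4.44 against 4.74 to 4.90 in the other RT mice. RT-6 was also far from the other RT mice for Cebpd (4.70 against 5.21 to 5.43), Atf2 (6.92 against 6.63 to 6.73) and Trap1 (8.49 against 8.08 to 8.23). In RT, Slc3a2 was low in RT-5 (7.15 against 7.36 to 7.46) and Chac2 high in RT-3 (6.15 against 5.96 to 6.01). In RS, Eif2ak2 was low in RS-6 (3.57 against 4.21 to 4.53) and Trib1 in RS-2 (5.15 against 5.61 to 5.75).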

How the results depend on the processing

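Over 24 alternatives per stress response gene, Ddit3 passed as lower in 1 and Asns as higher in 2, while the other 7 measured genes passed in none of them. The count of stress response genes higher was 1 after quantile normalization (Asns) and 1 after cyclic loess, and the count lower ranged from 0 to 1 when each mouse was left out in turn, with 1 without RS-2. Pathway genes higher numbered 36, against 18 after quantile normalization, 18 after loess, 17 without RS-4 and RS-6, 2 with each array's SD as a covariate (the spread covariate), 18 at an adjusted p under 0.05, and 21 to 40 when each mouse was left out, with 21 without RT-6 and 23 without RS-6. Pathway genes lower numbered 6, against 1 without RS-4 and RS-6, 3 after centring, 3 by the methods' test, 1 with the spread covariate, 1 at an adjusted p under 0.05, and 1 to 6 with each mouse left out, where leaving out RS-4, RS-6, RT-1, RT-2, RT-4 or RT-6 gave 3 or fewer. Over all transcript clusters, 3445 higher and 3764 lower became 1649 and 1791 without RS-4 and RS-6, 5883 and 2414 after centring, 732 and 888 with the spread covariate, and 2092 and 2307 at an adjusted p under 0.05. With the replicate number as a block 0 stress response genes were called, and the pathway counts were 27 higher and 3 lower. With group means removed, arrays of the same number correlated between −0.24 and 0.11. These values showed no pairing by number, but so few correlations cannot exclude one. The sign turned for changes near 0. After quantile normalization and loess respectively the change was −0.08 and −0.08 for Atf5, 0.03 and 0.03 for Sesn2, −0.02 and −0.05 for Chac1, 0.02 and 0.02 for Fgf21, 0.09 and 0.09 for Eif2ak2, and −0.04 and −0.06 for Chac2. After loess alone it was 0.01 for Eif2ak4 and 0.01 for Ppp1r15a. After centring it was 0.03 for Atf4, 0.01 for Trib3, 0.00 for Sesn2, 0.07 for Eif2ak2, 0.04 for Eif2ak4 and 0.05 for Ppp1r15a. With array weights it was 0.00 for Trib3, 0.03 for Ppp1r15a and −0.01 for Chac2. Without RS-4 and RS-6 it was 0.06 for Trib3, 0.06 for Eif2ak4, 0.08 for Ppp1r15a and −0.12 for Chac2. With the spread covariate it was 0.12 for Trib3, 0.06 for Fgf21, 0.12 for Eif2ak4, 0.07 for Ppp1r15a and −0.18 for Chac2. With each mouse left out, Trib3 ranged from −0.11 to 0.01, Chac1 from −0.03 to 0.16, Eif2ak2 from −0.15 to 0.04, Eif2ak4 from −0.09 to 0.04, Ppp1r15a from −0.06 to 0.03, Chac2 from −0.04 to 0.10 and Chac2 minus Chac1 from −0.17 to 0.07. The cause of these shifts was not tested. Of 29 pathway genes named by rule that passed, 14 still did so without RS-4 and RS-6, 17 after quantile normalization, 17 after loess, 26 after centring and 3 (Sesn3, Phgdh and Cebpd) with the spread covariate.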
